A study of Mus musculus with 12 samples.

Results

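The genes of the cytosolic ribosomal proteins were compared between sorted mouse microglia and astrocytes and between Kpna4 genotypes. Members were taken by symbol, as Rpl or Rps followed by a number and at most the suffix a, x, l or al, plus Rplp0, Rplp1, Rplp2 and Rpsa, with pseudogene symbols left out. This gave 84 of the 40853 gene symbols, 52 of the large subunit and 32 of the small subunit. A count was present in all 12 libraries for 80 members, and the same 80 passed the filter on low counts. Rpl10l, Rpl32l, Rpl39l and Rpl3l did not pass it.

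The cytosolic ribosome joins a large subunit, which forms peptide bonds, and a small subunit, which reads the mRNA. Its proteins are made in the cytoplasm, carried into the nucleus by import receptors, and assembled there with ribosomal RNA before the subunits are exported. Most of their mRNAs begin with a C followed by a run of pyrimidines, the terminal oligopyrimidine (TOP) tract, through which the mTOR pathway adjusts their translation to the state of the cell. Inflammatory activation of microglia is known to change their metabolism and growth signalling, and ribosomal protein mRNAs are among the abundant transcripts of most cells.

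The study asked how glia respond to inflammation without importin α4, a nuclear import receptor encoded by Kpna4. Mice aged 8 to 9 weeks, wild type (WT) or KPNA4 knockout (KO), all received an intraperitoneal injection of 1 mg/kg lipopolysaccharide (LPS), which bacteria carry in their outer membrane and which provokes inflammation, 20 h before dissection. Microglia and astrocytes were sorted from the whole brain by flow cytometry, and full-length cDNA was sequenced. Cell type and genotype form 4 groups with 3 libraries each. The animal numbers in the labels show 3 WT and 3 KO mice, each of which gave 1 library of either cell type. Untreated mice were not analysed here, so every value below belongs to mice given LPS. Which part of Kpna4 was deleted is not stated in the labels.

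Microglia libraries held 10.3 to 14.5 M counts in all and astrocyte libraries 10.7 to 15.6 M. Summed over 9 microglia markers, the CPM (counts scaled to a common library total) was 17457 to 21934 in microglia libraries and 184 to 671 in astrocyte libraries. Summed over 8 astrocyte markers it was 319 to 707 in microglia and 14695 to 19722 in astrocyte libraries, so the labelled cell types matched their markers. All markers of other cell types summed to 1175 to 4752 CPM in microglia and 2242 to 5792 CPM in astrocyte libraries. Of these, oligodendrocyte markers held 276 to 1731 and 854 to 3990 CPM, so the sorted cells were not free of others. Kpna4 itself was at 60 to 79 CPM in libraries labelled KO and 68 to 96 CPM in those labelled WT in microglia, and at 44 to 80 and 40 to 58 CPM in astrocytes. These ranges overlap, and a count over the whole gene does not check the genotype labels, so KO below means the libraries labelled KO. In astrocytes, 8 abundant non-coding RNAs took 26.2% to 39.5% of the counts, against 11.8% to 15.4% in microglia, and the astrocyte library KO 2 had the highest share.

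The sequences around the annotated transcription start show where a run like the TOP tract lies, if any, in members that set the cell types apart most and least. They are 30-base windows on the gene's strand, 15 bases before and 15 from the start on, from the RefSeq promoter table of build GRCm38.p6. The deposited counts were made on build GRCm39, so these positions do not apply to them. Capitals mark a C followed by at least 4 bases that are each C or T. The first 5 sequences belong to the members with the highest and the last 3 to members with the lowest microglia to astrocyte ratio within the set. For Rpl10a the first of its annotated starts is shown, and the window of its other start holds no such run.
Rps12, chr10:23787195-23787224, minus strand: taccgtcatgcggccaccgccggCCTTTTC
Rpl10a, chr17:28328456-28328485, plus strand: gtggcgCCCCCCCagcggccgcaaactgca
Rpsa, chr9:120127751-120127780, plus strand: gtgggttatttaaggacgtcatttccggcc
Rplp2, chr7:141447636-141447665, plus strand: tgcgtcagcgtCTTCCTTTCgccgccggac
Rps2, chr17:24720048-24720077, plus strand: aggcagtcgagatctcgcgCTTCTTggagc
Rpl38, chr11:114668565-114668594, plus strand: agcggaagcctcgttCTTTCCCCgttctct
Rpl41, chr10:128549154-128549183, minus strand: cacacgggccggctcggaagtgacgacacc
Rpl24, chr16:55966260-55966289, plus strand: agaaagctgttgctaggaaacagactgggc
In Rpl38 the run begins at the annotated first base, and in Rplp2 it spans it. Rpsa, Rpl41 and Rpl24 have no such run in this window, which says only that these letters are absent there. A RefSeq start sequence was found for 62 members. Of them 42, or 67.7%, have the run in the window of any annotated start, against 40.3% of 27025 genes in the same table. Runs lying wholly before the start were counted too, as in Rpl10a. The tested members with it had a median microglia to astrocyte fold of 2.16 (38 members) and those without it 2.28 (20 members), so both medians were close.

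Microglia held a larger part of their counts in ribosomal protein mRNAs than astrocytes. The members took 1.66%, 1.77% and 1.81% of all counts in microglia WT replicates 1, 2 and 3, and 2.19%, 1.93% and 2.05% in microglia KO. In astrocytes they took 0.813%, 0.686% and 0.652% in WT and 0.751%, 0.916% and 0.648% in KO. The lowest microglia library lay above the highest astrocyte library. The mean over 6 libraries was 1.90% ± 0.192 (SD) in microglia and 0.744% ± 0.105 (SD) in astrocytes, a ratio of 2.55. With the 8 non-coding RNAs left out of the library totals the ratio was 2.04. The 95% Wilson interval of a single library's share reached at most 0.00892 percentage points to either side, which covers counting error only, since amplified cDNA copies are not independent molecules. In bulk samples, a change in the number of cells of a type and a change in RNA per cell cannot be told apart.

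The balance of the subunits also differed between the cell types. Counts of large-subunit members divided by those of small-subunit members gave 1.61 to 1.82 in microglia and 1.86 to 2.09 in astrocytes, with no overlap. Rpsa, a small-subunit protein also known to bind laminin, held 4.77% to 8.10% of the members' counts in microglia and 2.24% to 4.06% in astrocytes. Without Rpsa the ratios were 1.90 to 2.14 and 2.05 to 2.25, which overlap. The means over 6 libraries were then 2.04 and 2.16, against 1.72 and 1.96 with it. Without Rpsa the astrocyte library still had the higher ratio in 5 of 6 animals, and with it in 6 of 6.

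**Figure D1:**
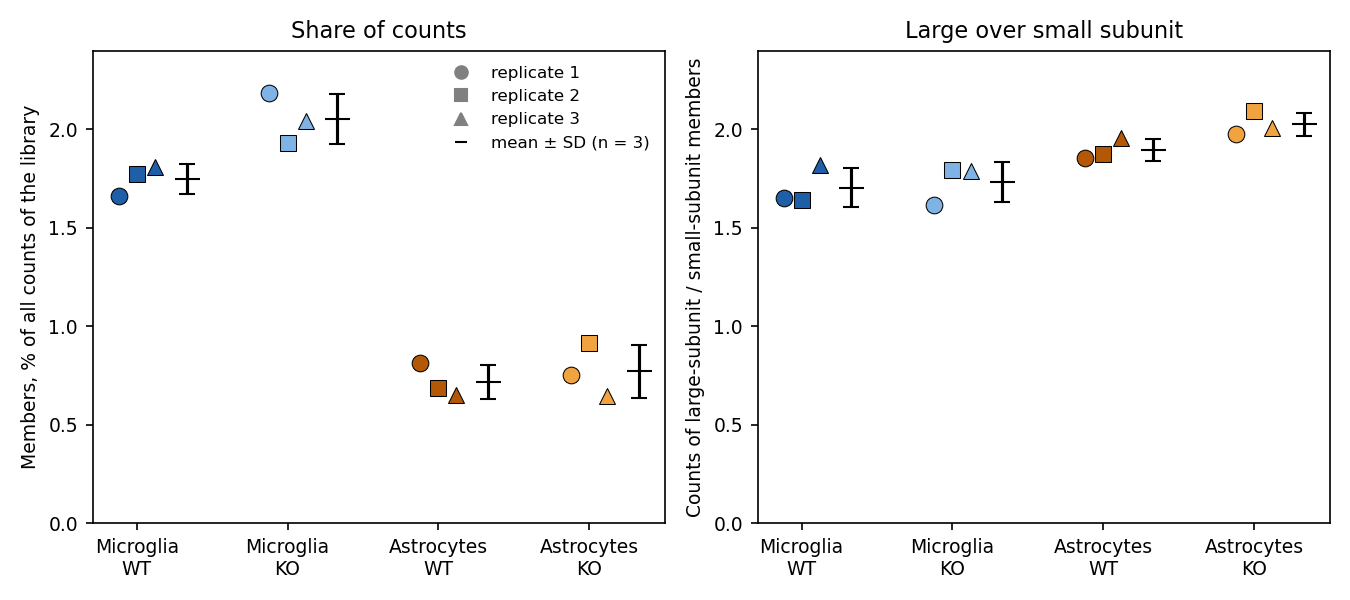
Left, the members' share of all counts in each of the 12 libraries, in percent. Right, counts of large-subunit members divided by counts of small-subunit members. Symbols give the replicate number and bars the mean ± SD of 3 libraries. Microglia lie between 1.66% and 2.19% and astrocytes between 0.648% and 0.916%, while the subunit ratio is higher in astrocytes.

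Gene by gene, nearly the whole set was higher in microglia. In edgeR's quasi-likelihood test over 17294 genes with Benjamini-Hochberg adjustment, 67 of the 80 tested members were called higher in microglia at an adjusted p under 0.05, where 28.2% of all genes tested were called higher. None was called lower, against 36.4% of all genes. The other 13 members also had a log2 fold change above 0, although they did not pass the test. The median log2 fold change was 1.08 over the members and -0.19 over all genes. Both subunits took part, with 40 of 48 large-subunit and 27 of 32 small-subunit members called and medians of 1.06 and 1.15. For 67 members all 6 microglia libraries had a higher CPM than all 6 astrocyte libraries, which held for 24.9% of all genes, and for none were all of them lower.

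The largest difference was in Rps12, a protein of the small subunit. It was at 114, 147 and 222 CPM in microglia WT and 214, 231 and 252 CPM in microglia KO. In astrocytes it was at 34.2, 32.4 and 44.0 CPM in WT against 24.0, 39.3 and 35.8 CPM in KO. Every microglia library exceeded every astrocyte library, and the log2 fold change was 2.17 (SE 0.21, adjusted p 3.14e-07 by edgeR). Rpl10a, which contacts the tRNA exit side as part of the L1 stalk, followed with 126 to 207 CPM in microglia and 24.9 to 40.6 CPM in astrocytes. Its log2 fold change was 2.0 (SE 0.18), at an adjusted p of 1.95e-07 by edgeR.

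Rpsa held more counts than any other member in microglia, a measure that also grows with transcript length. It reached 1346, 999 and 958 CPM in microglia WT and 1265, 1029 and 975 CPM in microglia KO. In astrocytes it was at 279, 203 and 265 CPM in WT against 208, 205 and 236 CPM in KO. The cell types did not overlap, the genotypes did, and the log2 fold change between cell types was 1.96 (SE 0.16, edgeR adjusted p 8.23e-08). Rps2, a protein of the mRNA entry channel, was at 165 to 320 CPM in microglia and 43.3 to 73.2 CPM in astrocytes, which gives a log2 difference of 1.78 (SE 0.21, adjusted p 3.62e-06 by edgeR).

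The acidic stalk, a flexible arm of the large subunit that recruits elongation factors, was higher in microglia in all of its proteins. Rplp0, its base, was at 389 to 614 CPM in microglia and 116 to 168 CPM in astrocytes. Rplp1 was at 328 to 523 and 107 to 164 CPM, and Rplp2 at 319 to 426 and 55.9 to 110 CPM. None of the ranges of the cell types overlapped. The log2 fold changes were 1.60 for Rplp0, 1.38 for Rplp1 and 1.84 for Rplp2, with edgeR adjusted p of 1.17e-06, 5.49e-06 and 3.16e-07. Other members called higher were Rpl5 (1.3) and Rpl11 (1.17), which also bind Mdm2 and so stabilize p53, Rps6 (1.38), the substrate of the S6 kinases, Rps19 (1.18), mutated in Diamond-Blackfan anaemia, and Rps3 (1.3), a protein of the mRNA entry region, with edgeR adjusted p of 3.19e-04 or less. These 5 were chosen after their values were seen.

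At the other end, a few members were nearly level between the cell types. Rpl38, a small protein of the large subunit, was at 78.0, 97.7 and 72.5 CPM in microglia WT and 85.7, 89.0 and 85.8 CPM in microglia KO. It was at 80.5, 57.2 and 48.9 CPM in astrocytes WT and 67.7, 94.1 and 47.3 CPM in astrocytes KO. The cell types overlap, and the log2 fold change was 0.05 (SE 0.22, edgeR adjusted p 0.865). Rpl41, the shortest member, was at 95.4 to 187 CPM in microglia and 77.9 to 166 CPM in astrocytes, with a log2 fold change of 0.10 (SE 0.23). Rpl23a, which lies at the exit of the peptide tunnel and binds the signal recognition particle, was at 374 to 642 and 145 to 591 CPM, with a log2 fold change of 0.11 (SE 0.33). Rpl21, at 0.14 (SE 0.24), and Rpl24, at 0.17 (SE 0.21), were alike, with edgeR adjusted p of 0.639 and 0.474. Missing the threshold does not show that these genes are equal between the cell types.

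**Figure D2:**
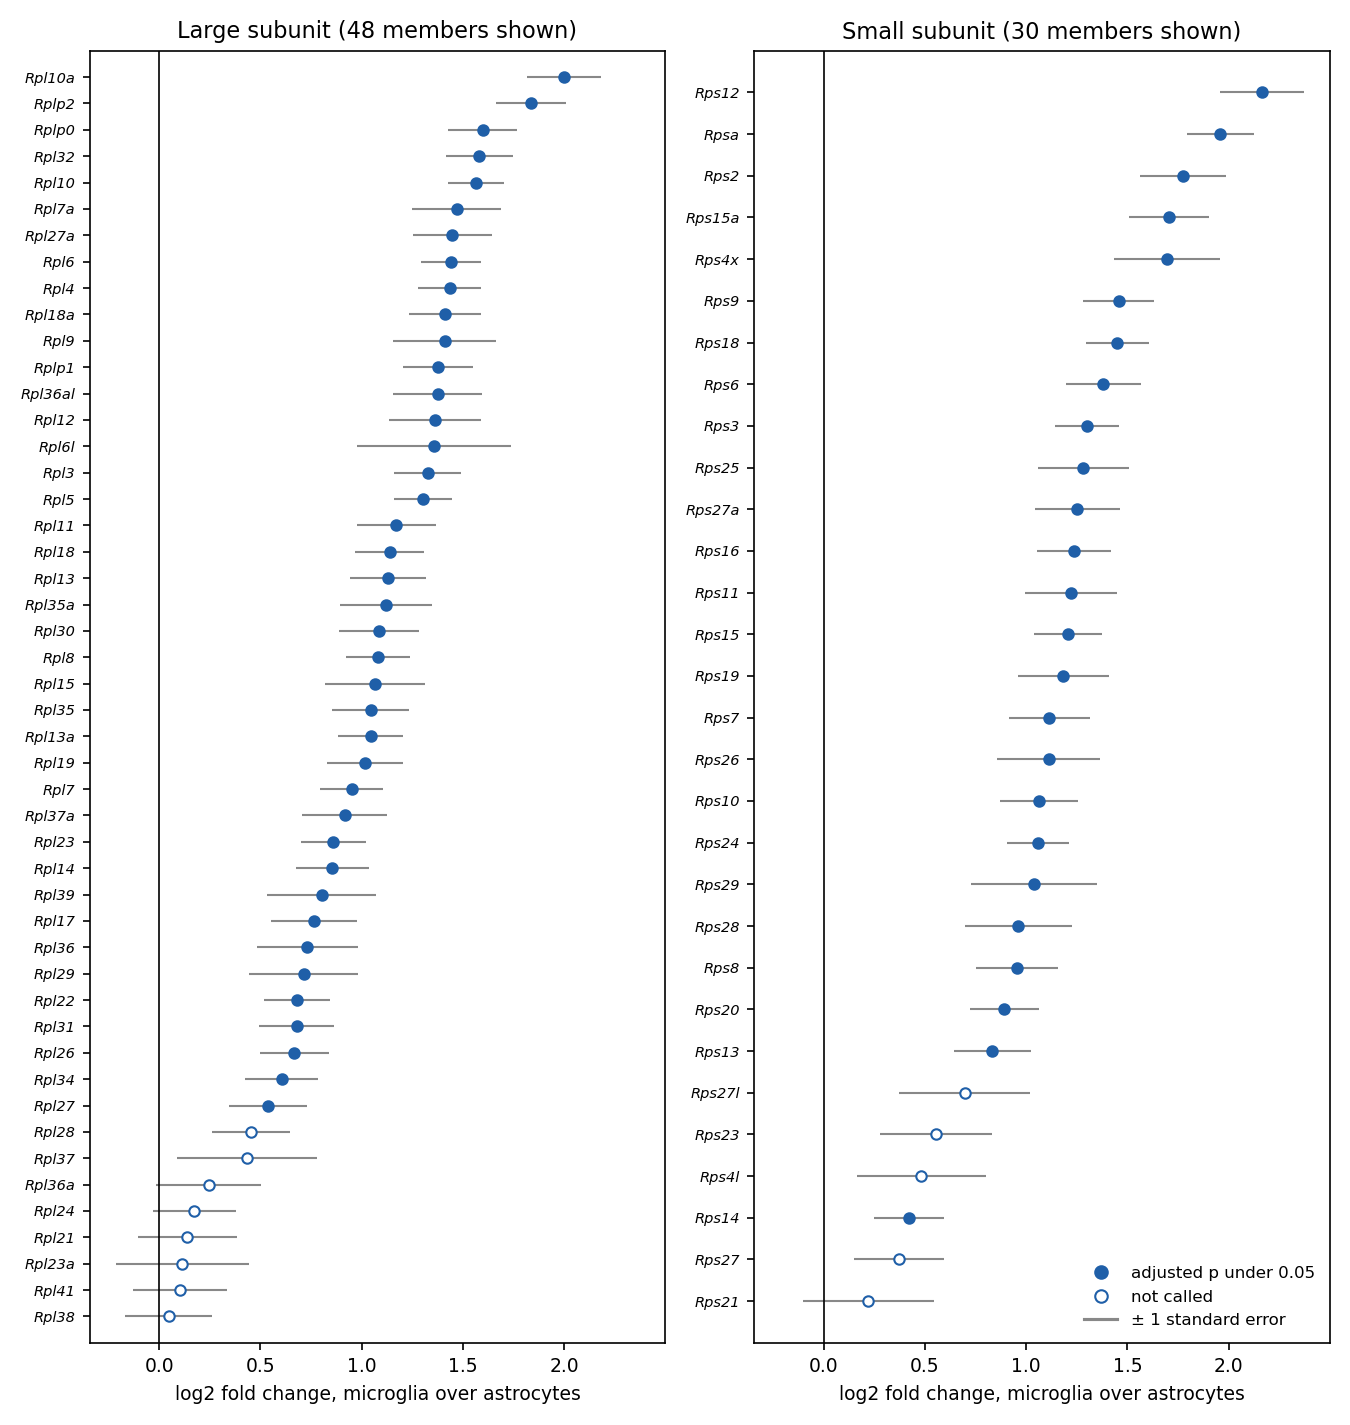
Log2 fold change of microglia over astrocytes for 78 of the 80 tested members, by subunit and ordered by size, with 1 standard error to either side. Filled points passed an adjusted p of 0.05. All points lie above 0, from 0.05 for Rpl38 to 2.17 for Rps12.

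**Figure D3:**
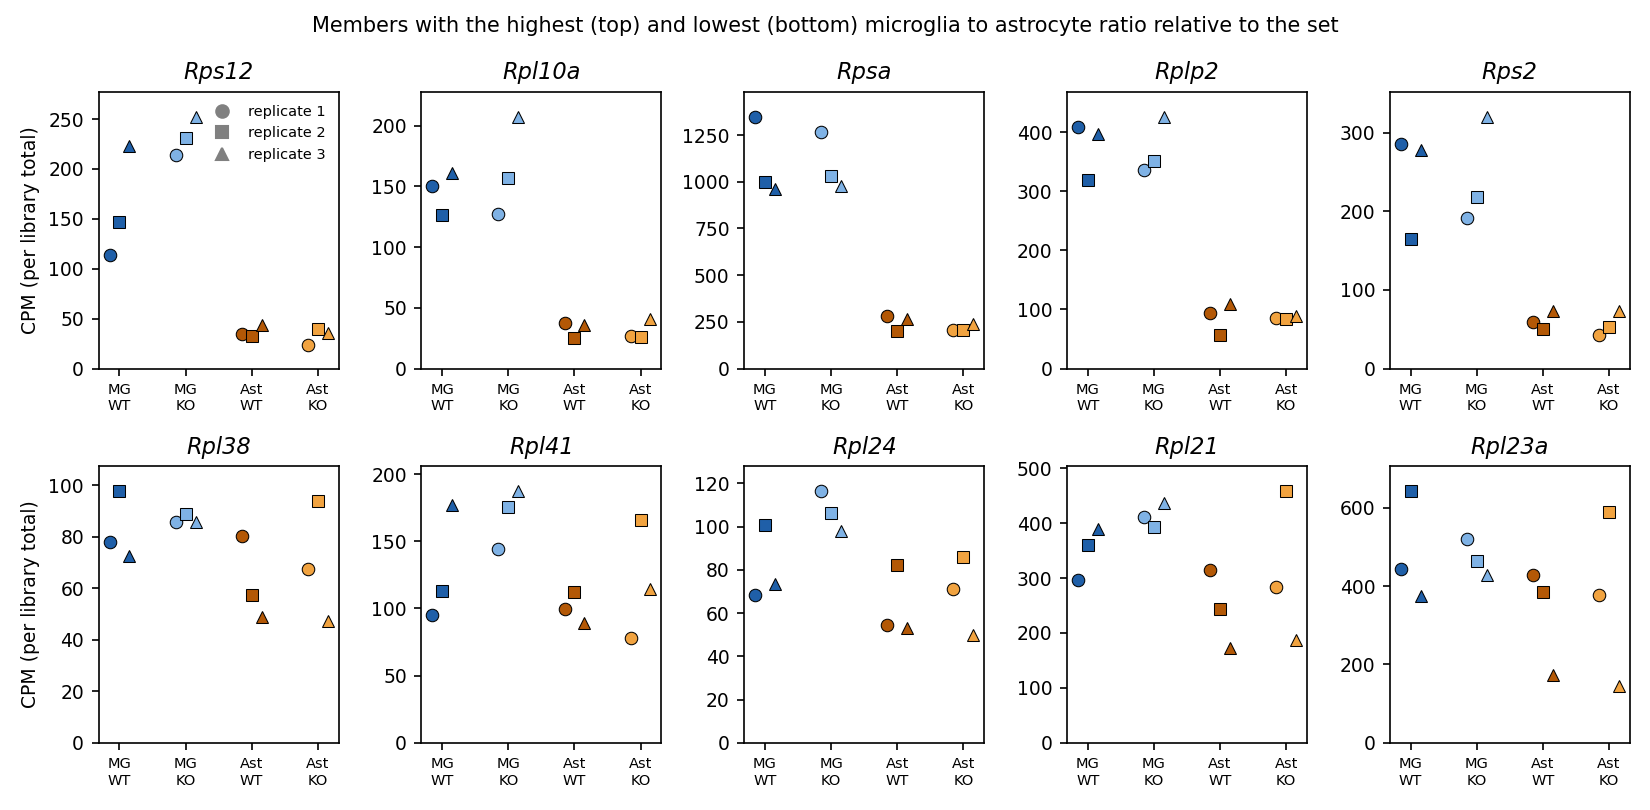
CPM per library of 10 members in the 4 groups, each panel with its own axis from 0. Symbols give the replicate number. In the top row microglia (MG) and astrocytes (Ast) are apart. In the bottom row they overlap.

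Whether the members keep their proportions can be read by scaling each library to the members' own sum. On that scale edgeR called 6 members higher in microglia (10.9% of all genes tested were called higher) and 14 lower (58.1% were called lower), and 60 did not pass. Relative to the set, Rps12 was higher by 1.1, Rpl10a by 0.89, Rpsa by 0.87, Rplp2 by 0.74, Rps2 by 0.67 and Rpl32 by 0.50 in log2. The log2 differences of the lowest were -0.96 for Rpl38, -0.92 for Rpl41, -0.86 for Rpl24, -0.85 for Rpl21 and -0.84 for Rpl23a. The others called lower included Rps21, Rpl36a, Rps27, Rps14, Rpl28, Rpl27, Rpl34 and Rpl26. Without the animals numbered 3, which are described below, 9 members were called higher and 9 lower, and 13 of the 20 were called in both settings. Rpl32 was no longer called, while the 5 highest and the 5 lowest remained.

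Per kilobase of coding sequence the members ranked alike in both cell types (Spearman's rho 0.90 over 78 members, which share libraries and depth). Both values of a member were divided by the same coding length, which can raise this correlation by itself. Rpl41 ranked 1 in both, with 1906 CPM per kilobase in microglia and 1410 in astrocytes. Its mean CPM was 149 and 110, and its coding sequence has only 78 bases. Coding length leaves out the untranslated parts of an mRNA, so very short coding sequences can rank too high. Rps23, a protein of the decoding centre, ranked 2, with 1660 and 899. Rpsa ranked 5 in microglia and 20 in astrocytes, and Rplp2 ranked 7 and 23. Rpl23a ranked 8 in microglia and 3 in astrocytes. The microglia to astrocyte fold was larger for longer coding sequences (Spearman's rho 0.48 over 78 members). It also moved with the deviation of replicate 3 from the other libraries of its group, described below (rho 0.56 over the same members, which share libraries), and the part of that deviation in the fold was not tested. The median fold was 1.87 in the 26 shortest (78 to 399 bases), 1.95 in the middle 26 (402 to 555) and 2.56 in the 26 longest (567 to 1260).

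Several core proteins have a second gene, and these copies did not all follow their partners. Rpl36al, a near copy of Rpl36a, was at 79.1, 111 and 70.6 CPM in microglia WT and 144, 90.4 and 86.8 CPM in KO. In astrocytes it was at 37.4, 23.6 and 22.2 CPM in WT against 33.7, 38.1 and 25.9 CPM in KO, below every microglia library. Its log2 fold change was 1.38 (SE 0.22, edgeR adjusted p 6.64e-05). Rpl36a itself was at 91.0 to 155 CPM in microglia and 49.9 to 123 CPM in astrocytes, which overlap, at a log2 difference of 0.24 (SE 0.26, adjusted p 0.428 by edgeR). The difference between the fold changes of both genes was not tested, and the values of neither held fractions from reads divided between genes.

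Rps27l, a copy of Rps27 that is induced by p53, was low, at 7.0 to 15.4 CPM in microglia and 2.11 to 9.69 CPM in astrocytes. Its log2 fold change of 0.70 (SE 0.32, adjusted p 0.0719 by edgeR) did not pass, and neither did that of Rps27 at 0.37 (SE 0.22). Rps4l was at 6.82 to 14.9 and 4.59 to 9.43 CPM, with 0.48 (SE 0.32, edgeR adjusted p 0.2), while its X-linked partner Rps4x was called at 1.69 (SE 0.26). Rpl6l was called at 1.36 (SE 0.38, edgeR adjusted p 0.00618), but its counts hold fractions of reads shared with other genes in all 12 libraries. Rpl3, Rpl10 and Rpl39, the widely expressed partners of genes known from muscle and testis, were called at 1.33, 1.56 and 0.80.

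Those tissue-restricted copies were close to absent. Rpl10l had 1 count in microglia WT 1 and 0 in the other 11 libraries, where 0 counts allow up to 0.291 CPM in the shallowest library. Rpl39l had 17, 4 and 1 counts in 3 microglia libraries and 0 elsewhere. Rpl3l, a copy typical of muscle, had 0 counts in all 6 microglia libraries. In astrocytes it had 0, 0 and 6 counts in WT and 17, 4 and 17 counts in KO. Rpl32l had 0 to 13 counts per library.

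Genes of the translation machinery outside the set were higher in microglia to differing degrees. Of all genes tested, 28.2% were called higher and 36.4% lower. Of 6 core subunits outside the symbol rule, 5 were called higher, among them Rack1, the scaffold of the small subunit, at 2.06, and Fau, the precursor of a small-subunit protein, at 1.74. Of 35 ribosome biogenesis genes 30 were called higher and 1 lower, with a median of 1.31. They include Heatr1 and Nop2, which act in rRNA transcription and processing, at 2.91 and 2.83, and Polr1a, the largest subunit of RNA polymerase I, at 1.84. Heatr1 was at 145 to 196 CPM in microglia and 13.2 to 25.5 CPM in astrocytes, with no overlap.

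Elongation factors were called higher in 8 of 12 and lower in 1, the neuronal and muscle isoform Eef1a2 at -3.58, while the general isoform Eef1a1 was at 1.36. Initiation factors were called higher in 18 of 33 and lower in 2, with a median of 0.40, and the helicase Eif4a1 led at 2.20. Of 19 other mRNAs known to carry a TOP tract, 13 were higher and 2 lower, with Pabpc1, the poly(A) binding protein, at 1.81 and Vim, an intermediate filament of astrocytes, at -4.71. This list shares genes with the elongation, initiation and import lists, Eef1a1 among them, so these counts are not separate. Among 12 genes that control such mRNAs 5 were higher and none lower, and the smallest p belonged to Rptor (1.83), the mTORC1 subunit, Larp1 (1.92), which binds the tract, and Myc (3.90). Import and escort factors were higher in 10 of 16 and lower in 3, with Kpnb1, Ipo5 and Ipo9, receptors that carry ribosomal proteins, at 1.36, 1.24 and 1.18. The 78 mitochondrial ribosomal protein genes differed from this, with 8 called higher, 14 lower and a median of -0.11.

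Between genotypes, the microglia libraries labelled KO had the larger share of member counts, but no single member passed the test. The share was 1.75% ± 0.0766 (SD, n = 3) in WT and 2.05% ± 0.127 (SD, n = 3) in KO, and the lowest KO library exceeded the highest WT library. The ratio was 1.18, in the large subunit (1.18) as in the small (1.17). In edgeR's test of the 6 microglia libraries 0 of 80 members were called, and 0% of the 14191 genes tested were. At an unadjusted edgeR p under 0.05 there were 7 members, all higher in KO, where 7.42% of all genes reached that p in either direction and 2.35% were higher. DESeq2 called 0 members as well, with 9 at an unadjusted p under 0.05. Of the 80, 73 had a log2 fold change above 0, against 49.9% of all genes. The median was 0.25 over the members and -0.00 over all genes. For 19 members all 3 KO libraries lay above all 3 WT libraries, which held for 6.53% of all genes, and for none were all below.

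The members with the smallest p in microglia were Rpl32, Rpl12 and Rpl23. Rpl32 was at 74.5, 84.0 and 102 CPM in WT against 128, 117 and 121 CPM in KO, without overlap, at a log2 difference of 0.47 (SE 0.19, unadjusted p 0.0256, adjusted p 0.62 by edgeR). Rpl12, a protein at the base of the stalk, was at 125, 148 and 155 CPM in WT against 256, 194 and 168 CPM in KO, again without overlap (0.51, SE 0.21). Rpl23 was at 126, 180 and 192 CPM in WT against 250, 202 and 249 CPM in KO (0.48, SE 0.20). KO 1 was the highest of the 3 KO libraries in all of them. Members with a large difference between cell types did not all share the pattern, as the log2 fold change was -0.04 for Rpsa, -0.04 for Rplp2 and -0.03 for Rps2, with edgeR adjusted p of 0.976 or more.

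Scaled to the members' own sum, 50 members lay above 0 and 30 below in the microglia KO comparison, none was called, and only Rpl37a, at -0.52, had an unadjusted edgeR p (0.0298) under 0.05. The number of members at an unadjusted p under 0.05 was 1 without WT replicate 1, 2 without KO replicate 2 and 16 without WT replicate 3. Other cell types' markers had a lower mean sum in microglia KO than in WT, but the groups overlapped. Their sum was 1743 to 4752 CPM in WT against 1175 to 2092 CPM in KO. Of these, the 4 ependyma and choroid plexus markers, mostly Ttr, were at 846 to 2125 CPM in WT against 343 to 866 CPM in KO, and the 6 oligodendrocyte markers at 276 to 1731 and 314 to 775 CPM. With the summed markers as a covariate 21 members had an unadjusted p under 0.05 and none was called. Their part in the difference was not tested further.

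**Figure D4:**
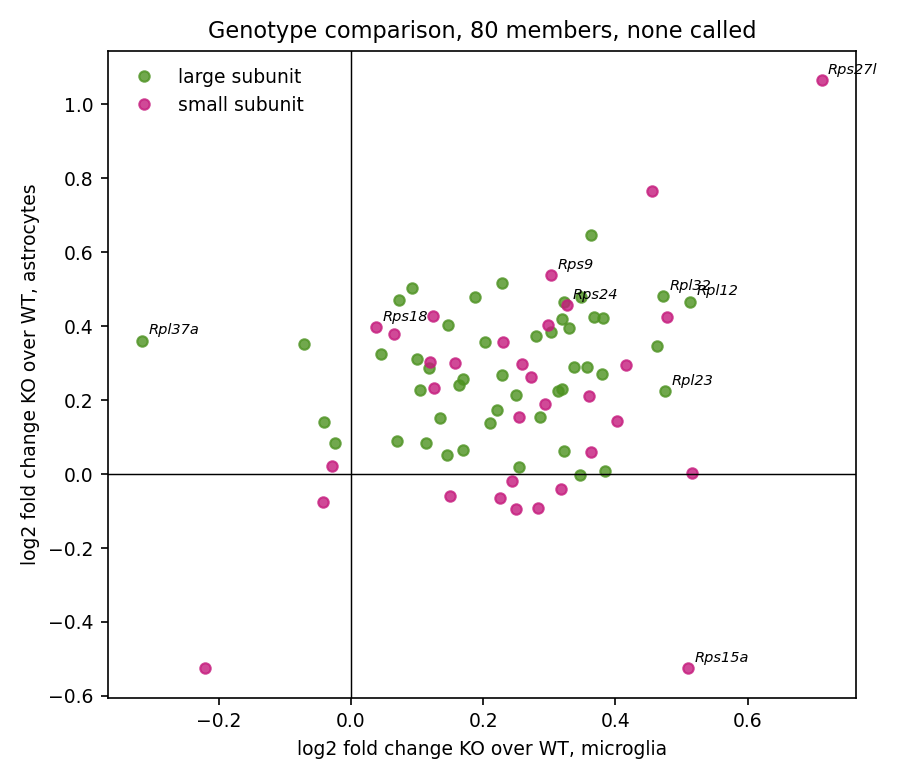
Log2 fold change of KO over WT for the 80 tested members, in microglia on the horizontal and in astrocytes on the vertical axis, each from its own fit of 6 libraries. Points are coloured by subunit, and genes described in the text are named. Most points lie above 0 on both axes, but no member was called and the astrocyte values rest on the library KO 2.

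In astrocytes the genotype groups overlapped in the members' share, at 0.717% ± 0.0846 in WT and 0.772% ± 0.135 in KO (SD, n = 3 each), a ratio of 1.08. The value depends on the library KO 2, which had the highest share of all 6 and also the highest share of non-coding RNAs, and without that library the ratio was 0.975. In edgeR's test 0 of 80 members were called, and 0% of the 15755 genes tested were. At an unadjusted edgeR p under 0.05 there were 2 members, among them Rps9, where 2.37% of all genes reached it, and DESeq2 called 0 with 3 at that p. The median log2 fold change was 0.27, with 70 of 80 above 0, but without KO 2 it was -0.0092, with 38 above and 43 below of the 81 members then tested. KO libraries lay all above WT for 4 members (2.39% of all genes) and all below for 1, Rps4l (5.74% of all genes).

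In astrocytes, Rps9 was at 124, 77.6 and 121 CPM in WT against 154, 153 and 116 CPM in KO, which overlap (log2 fold change 0.54, SE 0.24, unadjusted p 0.0487 and adjusted p 0.999 by edgeR). Rps24 was at 95.2, 84.6 and 104 CPM in WT against 112, 126 and 115 CPM in KO, without overlap (0.46, SE 0.21). Rpl6 and Rps27l were among the members with all KO libraries above all WT libraries in both cell types. Rps27l had the highest log2 fold changes of all members, 0.71 (SE 0.34) in microglia and 1.07 (SE 0.57) in astrocytes, at edgeR adjusted p of 0.69 and 0.999, from few counts.

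The genotype effect was not shown to differ between the cell types for any member. In the single fit of all 12 libraries, edgeR called 0 members for the difference, and 0% of 17294 genes. DESeq2 called 0 members too. At an unadjusted edgeR p under 0.05 there was 1 member, Rps15a, where 6.37% of all genes reached it. Rps15a was at 49.6, 61.2 and 90.6 CPM in microglia WT and 77.1, 102 and 111 CPM in microglia KO. In astrocytes it was at 27.8, 20.9 and 27.5 CPM in WT against 14.9, 11 and 23.6 CPM in KO. The groups overlap in both cell types, and the effect in microglia minus that in astrocytes was 0.94 in log2 (SE 0.39, unadjusted p 0.0287, edgeR adjusted p 0.709). Rpl37a had the opposite sign at -0.78 (SE 0.42), followed by Rps18 at -0.45 (SE 0.31), with edgeR adjusted p of 0.847 and 0.899. The median difference was -0.13 over the members and -0.16 over all genes.

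The neighbouring gene lists were not called between genotypes either, with edgeR calling 0 genes of each list in both cell types. At an unadjusted edgeR p under 0.05, 9 mitochondrial ribosomal protein genes were higher and 0 lower in microglia KO, where 2.35% of all genes were higher. In astrocytes KO 3 of the 78 were higher and 1 lower, where 2.37% of all genes reached that p in either direction. In microglia the medians of the log2 fold changes were 0.23 for the mitochondrial ribosomal proteins (60 of 78 above 0), 0.21 for initiation factors, 0.12 for elongation factors, 0.16 for ribosome biogenesis and 0.06 for import and escort factors. The genes that control TOP mRNAs had a median of -0.21, with 3 of 12 above 0. In astrocytes the mitochondrial ribosomal proteins had a median of 0.27 (65 of 78 above 0). Their share of all counts was 0.130%, 0.121% and 0.104% in astrocytes WT and 0.128%, 0.157% and 0.104% in KO, so that KO 2 was again the highest library. In microglia the share of the mitochondrial ribosomal proteins was 0.119%, 0.133% and 0.125% in WT. It was 0.156%, 0.149% and 0.141% in microglia KO, without overlap, as for the members.

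A pattern by replicate number ran through all 4 groups. Scaled to the members' sum, 12 members (15%) had their lowest value in replicate 3 of every group and 16 (20.0%) their highest. Of all 17480 genes with enough counts, 1.09% were lowest and 8.54% highest there. With library totals 11 members were lowest and 11 highest, against 1.8% and 6.25% of all genes. With TMM factors, the scaling of the main test, 13 members (16.2%) were lowest and 5 (6.25%) highest, against 2.77% and 4.32% of all genes, so that the share of highest members was near that of all genes. For replicates 1 and 2, at most 5 members did so in either direction under these 3 scalings. Rps29 is an example, at 194, 277 and 162 CPM in microglia WT, 360, 216 and 176 CPM in microglia KO, 138, 104 and 44.5 CPM in astrocytes WT and 85.4, 114 and 48.0 CPM in astrocytes KO. Rpl37, at 188, 176 and 65.5 CPM in astrocytes WT and 163, 223 and 64.0 CPM in KO, and Rpl23a, at 428, 384 and 172 and 377, 591 and 145 CPM, show the same. Replicate 3 is the lowest in each of these groups.

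The reverse holds for Rpl9, at 27.5, 12.8 and 44.4 CPM in astrocytes WT and 28.0, 22.4 and 42.3 CPM in KO, and for Rps6, at 88.0, 76.6 and 120 CPM in WT against 86.0, 45.4 and 120 CPM in KO. In microglia Rpl9 was also highest in replicate 3, at 110 CPM in WT against 124 CPM in KO. The deviation of replicate 3 from the other libraries correlated across 78 members between any pair of groups, with Spearman's rho of 0.67 to 0.84, given as a description because members share libraries. Members with longer coding sequences had the higher deviations in astrocytes (rho 0.44 in WT and 0.43 in KO) and less so in microglia (0.14 and 0.29). Summed markers of other cell types were also highest in replicate 3 of each group. In replicates 1, 2 and 3 they were at 2126, 1743 and 4752 CPM in microglia WT and 1175, 1284 and 2092 CPM in microglia KO. In astrocytes they were at 4166, 2242 and 5792 CPM in WT and 2622, 2461 and 3528 CPM in KO. The labels do not say what the number stands for, and the cause was not tested. Without the animals numbered 3, 62 members were called between cell types and none between genotypes.

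**Figure D5:**
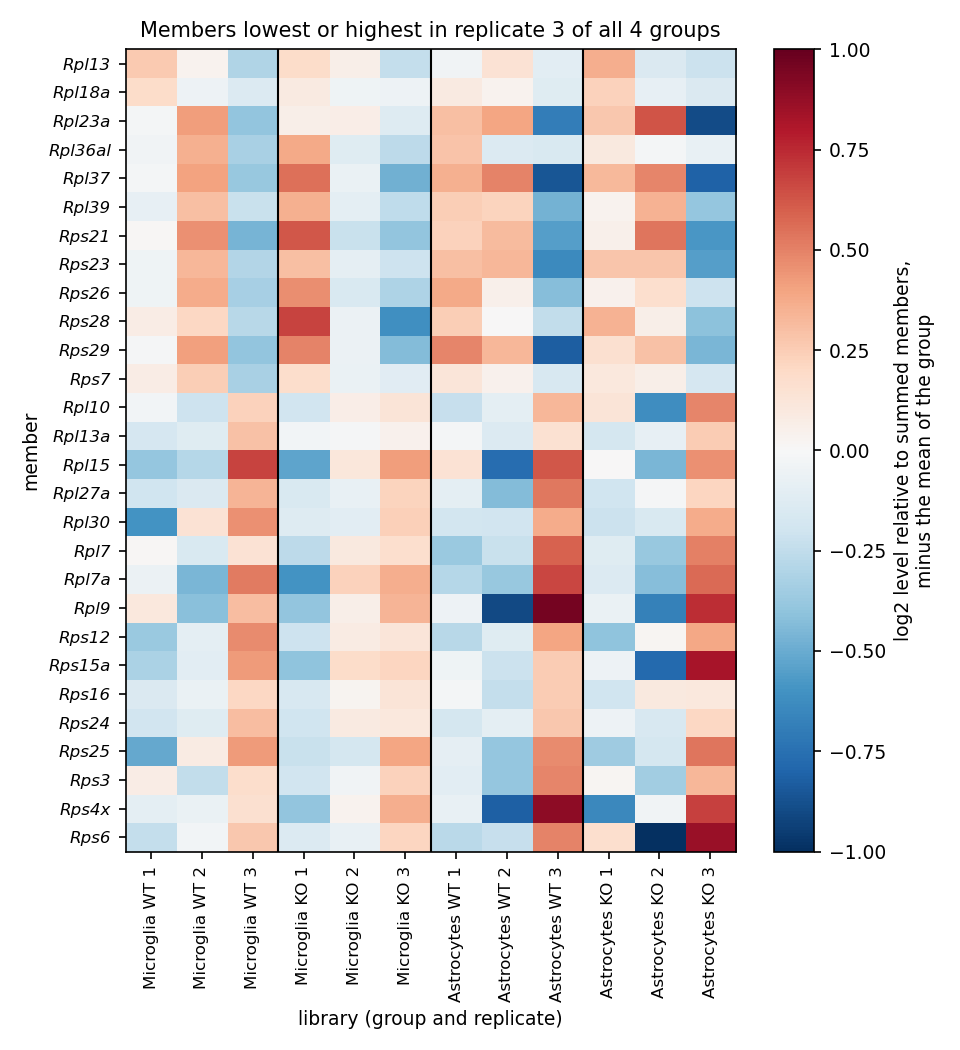
Level of 28 members in the 12 libraries, as log2 of the counts relative to the summed members minus the mean of the group. Blue is below and red above that mean, and the scale ends at 1 to either side. The members were chosen for being lowest (upper 12) or highest (lower 16) in replicate 3 of all 4 groups, which the columns of replicate 3 show.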

How the data were processed

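For either cell type the authors deposited a table of estimated counts, 1 row a symbol, without normalization. Per the submitters' processing notes the tools were STAR 2.7.10b, RSEM 1.3.3 and limma with build GRCm39, and no annotation is named. Estimated counts were rounded to whole numbers. Of the 84 members 27 held fractions (tolerance 0.001) from reads divided between similar genes, and 23 pseudogene symbols were left out. The main test was edgeR 4.0.16 (R 4.3.3) with its default filter (minimum count 10), TMM factors and Benjamini-Hochberg adjustment over all genes. It was fitted to 12 libraries and 4 group means for the cell types and the difference of genotype effects, and to the 6 libraries of a cell type for KO against WT. The standard error is the log2 fold change over the root of F.

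Simulated data had the real means but the same fixed spread for every gene, lower than edgeR's common estimate for these libraries. On them, log2 changes of 1 were recovered in 44.7% for the cell types and 0% for the difference. For KO against WT they were recovered in 12.0% in microglia and 15.0% in astrocytes. Changes of 2 were recovered in 100%, 30.6%, 90.7% and 84.7%, in that order. Replicates are separate animals by their numbers. Coding lengths came from GENCODE (GRCm38) and start sequences from RefSeq. Alternatives included DESeq2 1.42.0 and limma 3.58.1 voom. Microglia and astrocytes of an animal pair by its number, with deviations correlated at 0.004 to 0.097 over all genes, while WT and KO share only a replicate number. Over the members the correlations within an animal were 0.00231, 0.566 and 0.675 in WT replicates 1, 2 and 3. In KO they were 0.458, -0.186 and 0.672. Genes were named by rank within a comparison, as duplicate copies, as stalk proteins with Rpsa, or, in other lists, among the smallest p, and exceptions are stated. The members and lists were chosen with earlier results of these data known. Some members' own values are not reported here.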

Additional observations from a re-analysis of the deposited data

How the results depend on the processing

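Between microglia and astrocytes, 62 to 76 members were called higher and at most 1 lower with other size factors, library totals, other filters or tools, thinned counts, the animal as a block or animals omitted, against 67 higher and 0 lower in the main fit. A minimum absolute log2 fold change of 1 left 48 higher. Scaling to the summed members changed the result, with 20 called, 6 higher and 14 lower. The median log2 fold change of 1.08 was 1.38 with library totals alone, which moved the median of all genes from -0.19 to 0.09, and 1.11 to 1.42 with an animal left out, the highest without KO replicate 2. The ratio of the members' shares was 2.04 without the 8 non-coding RNAs in the totals and 2.39 without the animals numbered 3. With the animal as a replicate block, 68 members were called with a median of 1.13.

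No alternative called a member between genotypes or for the difference of genotype effects. The median of KO against WT ran from 0.19 (without WT replicate 1) to 0.32 (without KO replicate 2) in microglia, and from -0.0092 (without KO replicate 2) to 0.37 in astrocytes. With the replicate number as a block 0 members were called and both medians were 0.25. Labels do not pair WT with KO animals. Deviations of same-numbered libraries correlated over all genes, in microglia at 0.135, 0.0535 and 0.197 and among astrocytes at -0.0208, 0.0458 and 0.228. Over the members the same pairs gave 0.0940, -0.485 and 0.733 in microglia and 0.511, 0.654 and 0.832 in astrocytes. Of 412 values of named members under alternatives, 400 kept their direction and side of the threshold, 12 were newly called (Rps27l, Rps27, Rpl36a and Rps4l) and none reversed. On the simulated data, log2 changes of 1 between genotypes were mostly not recovered with 3 libraries a group. That rate covers genes drawn from all those tested, and the rate for the members was not tested.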

Other observations

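Pseudogene symbols ending in -ps, 23 rows that the symbol rule leaves out, held 0.485 to 1.37 counts for every 100 counts of the members. Replicate 3 had the highest value in each of the 4 groups. With these rows added, the members' share was 1.92% ± 0.192 (SD, n = 6) in microglia and 0.752% ± 0.106 (SD, n = 6) in astrocytes.

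The ribosome biogenesis genes held 0.336% ± 0.0531 of the counts in microglia and 0.127% ± 0.0166 in astrocytes (SD, n = 6 each), and the elongation factors 0.424% ± 0.0600 and 0.156% ± 0.0247. The mitochondrial ribosomal proteins took nearly equal shares, 0.137% ± 0.0140 in microglia and 0.124% ± 0.0198 in astrocytes, and these ranges overlap (0.119% to 0.156% and 0.104% to 0.157%).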
